A study of Mus musculus with 6 samples.

Results

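The mRNAs of the kinetochore, the spindle checkpoint and the mitotic chromosome were compared between RNA co-precipitated with Staufen2 and the input RNA in an immortalized podocyte line of the mouse after differentiation. The genes were chosen by symbol, though with earlier results of these data known. They were all genes with a Cenp symbol of 1 further letter, and 27 named kinetochore, checkpoint, chromosomal passenger, spindle and mitotic chromosome genes. All were measured, which gave 47 of the 19938 genes tested. Podocytes are the epithelial cells that cover the capillaries of the kidney glomerulus, and Staufen2 binds double-stranded stretches of RNA and is known from neurons, where it takes part in carrying mRNAs. The arrays fell into 3 of Staufen2 pulldown RNA and 3 of input RNA, numbered 1 to 3 in each group. Cells of both groups were propagated at 33 °C with gamma-interferon, differentiated at 37 °C without it, and lysed in a cytoplasmic extraction buffer. For the pulldown, lysate at 150 mM KCl was pre-cleared on protein G beads and incubated with an antibody against Staufen2, and the beads were washed 3 times. Each array was labelled from 100 ng of RNA whatever the yield, so a value tells of the composition of an RNA sample, not of how much RNA was recovered. The cells are 1 conditionally immortalized line, and no control-antibody pulldown was analysed here. A higher value is therefore a higher share of the recovered RNA than of the input, whether or not Staufen2 bound it.

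The kinetochore is the protein assembly that joins a chromosome to spindle microtubules during cell division. Its inner layer sits on nucleosomes that carry the histone variant CENP-A, its outer layer grips microtubules through the Ndc80 complex, and a fibrous corona forms on unattached kinetochores. Unattached kinetochores activate the spindle checkpoint, which holds the anaphase-promoting complex inactive until every chromosome is attached. Mature podocytes in the kidney are known as cells that rarely divide, while lines such as this one divide at the permissive temperature.

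Among the 47 genes, 26 were higher in the pulldown, 11 were lower and 10 did not pass the test, where 48.7% of all genes passed in either direction (limma's moderated test, Benjamini-Hochberg adjusted p under 0.05 over all genes). The largest positive difference was that of Mki67, a coat protein of the mitotic chromosome, at 1.71 ± 0.047 (pulldown minus input on the log2 scale, ± moderated SE), which is 3.28-fold higher and was also the largest positive difference among all 19938 genes. Knl1, the scaffold of the outer kinetochore, followed at 1.64 ± 0.11. The largest negative difference was that of Cenpx, a small histone-fold protein, at -1.04 ± 0.059, which is 2.05-fold lower. The higher members made up 55.3% of the set, against 31.3% of all genes, and the lower members 23.4%, against 17.3% of all genes. Bright genes, those with a mean over 6.54 (the median over all probe sets) in at least 1 group, numbered 12162, of which 45.9% were higher and 26.8% lower. Among the members 44 were bright, Cenpk through its input mean alone. Of these bright members 59.1% were higher and 20.5% lower (26 and 9 genes). Whether these shares differ from those of all bright genes was not tested. The median difference of the members was 0.20, against 0.04 for all genes and 0.09 for bright genes, and after cyclic loess normalization it was 0.11, against 0.02 for all genes. A member was at least 2-fold higher in 6 cases, and these were Mki67, Knl1, Cenpe, Kntc1, Top2a and Cenpf, while Cenpx was the single member at least 2-fold lower. The matching shares of all genes were 1.67% and 2.01%. After cyclic loess 23 members were higher and 16 lower, so that higher genes made up 59% of the calls, against 70.3% under the deposited scaling (for all genes, 52.9% against 64.4%).

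**Figure D1:**
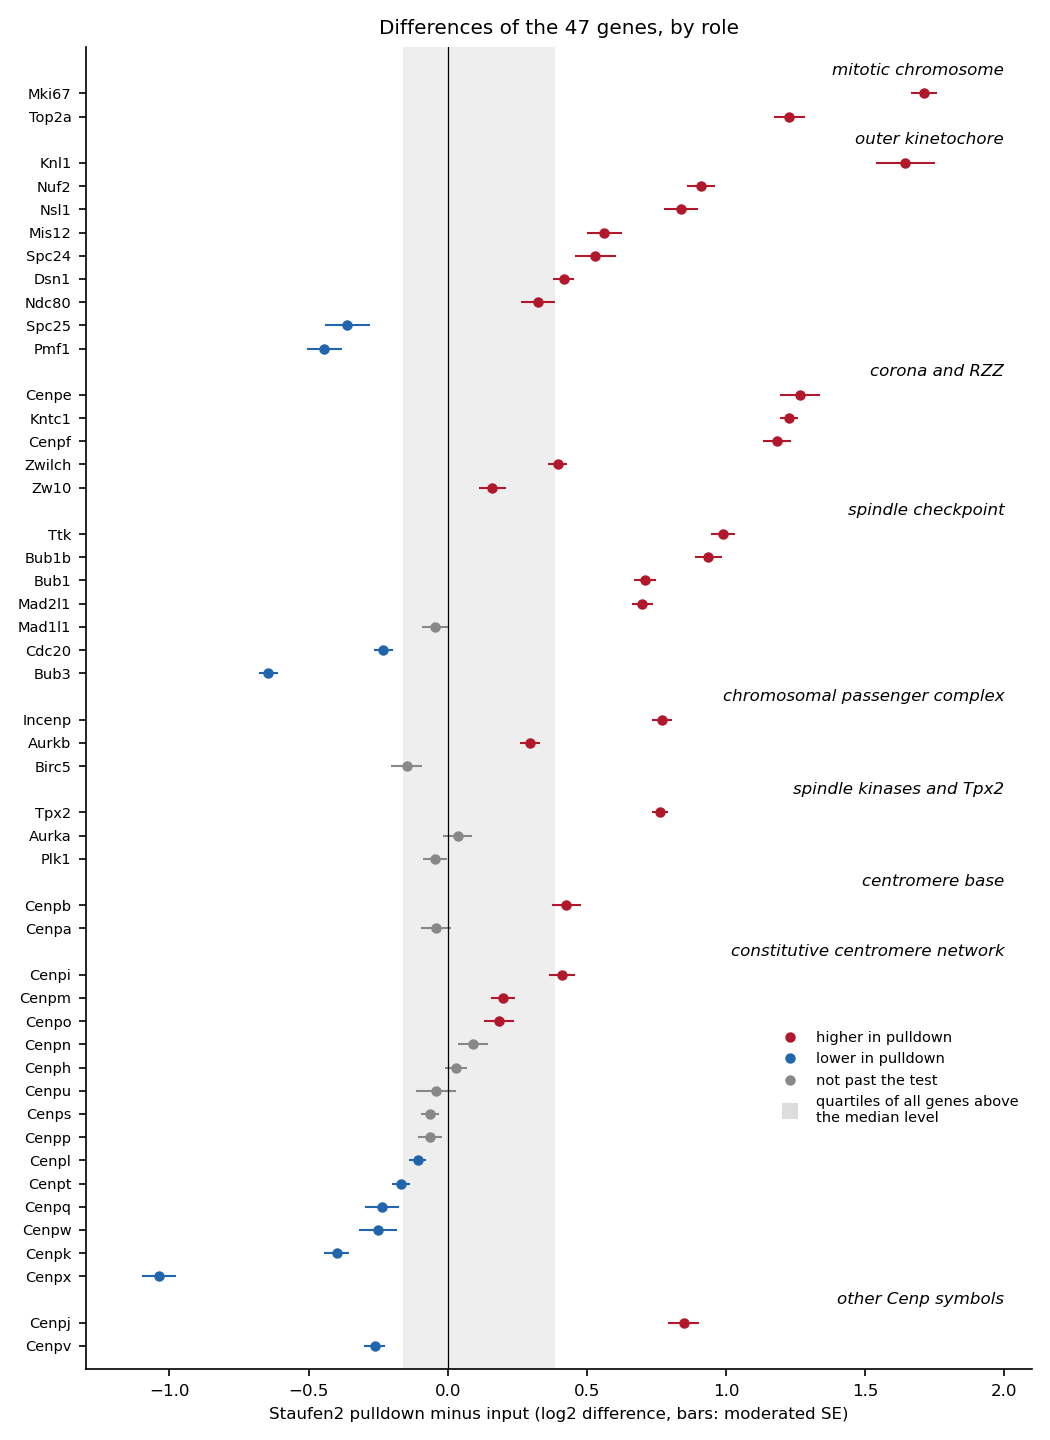
Log2 difference between Staufen2 pulldown and input for each of the 47 genes, grouped by role, with points for the estimate over 3 pulldown and 3 input arrays and bars for the moderated SE. Members run from -1.04 for Cenpx to 1.71 for Mki67, and the grey band marks the quartiles of all bright genes (drawn as above the median level), at -0.16 and 0.38.

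The spread of the differences within the set was wide. The quartiles of the members lay at -0.09 and 0.77, while those of all bright genes lay at -0.16 and 0.38. The median over the members, taken against the mean of the input arrays, was 0.25, 0.17 and 0.23 in pulldown arrays 1, 2 and 3. In 26 members every pulldown value lay above every input value, and in 12 every pulldown value lay below, against 36.4% and 19.6% of all genes. Among the 12162 bright genes this was so for 5952 above and 3543 below, and among the 44 bright members for 26 and 10.

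**Figure D2:**
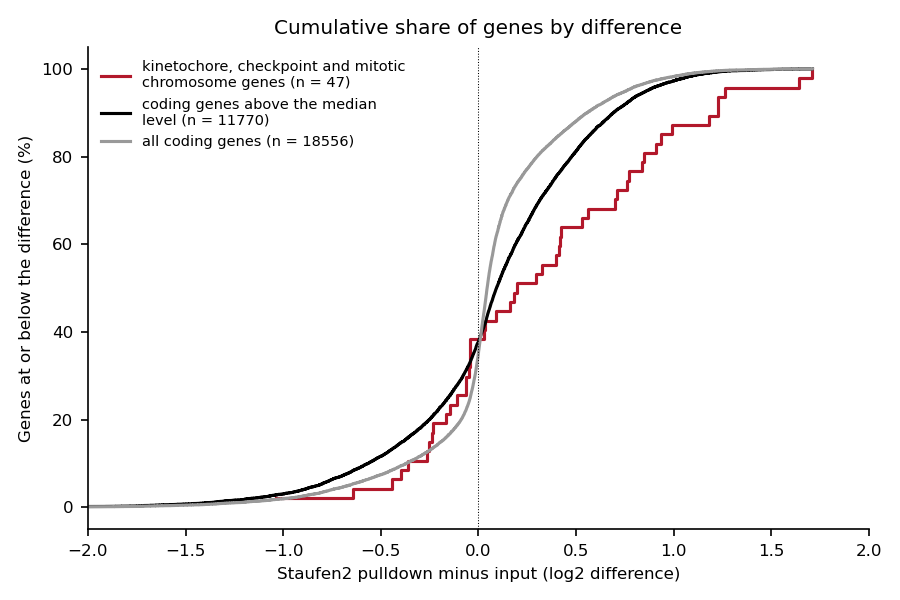
Cumulative share of genes (percent, vertical axis) at or below a given log2 difference between pulldown and input (horizontal axis), for the 47 members, the 11770 bright coding genes and all 18556 coding genes. The curve of the members lies to the right of both others over most of the positive range, and the upper quartile of the members is 0.77.

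Arrays within a group correlated at 0.998 to 0.999 over all probe sets, and arrays of different groups at 0.982 to 0.983. Whether the 3 replicates of a group were separate cultures is not given in the labels, and the p-values then reflect only how far these samples scatter, which may be technical. An exact permutation test of 3 against 3 arrays cannot give a p below 0.1. Of 10 podocyte markers measured, 6 had an input mean over 6.54, and 7 of the 10 passed as higher. Wt1 averaged 9.91 in the pulldown and 9.57 in the input and Synpo 8.77 and 8.29, whereas Nphs1 (6.38 and 6.30), Podxl (6.35 and 6.04) and Ptpro (6.13 and 6.10) lay under 6.54 in both groups. None of the 5 endothelial markers reached 6.54 in either group (5.40 to 5.95 in the pulldown, 5.34 to 5.74 in the input). Of the 5 immune markers 2 were above 6.54 in the input, Cd14 (7.21 in the pulldown and 7.68 in the input) and Cd68 (7.14 and 7.38). Both passed as lower, and Ptprc, Adgre1 and Itgam lay under 6.54 in both groups. Of the 5 tubular markers 3 were above it in the input, Lrp2 (9.53 in the pulldown and 9.36 in the input), Cubn (7.65 and 7.06) and Aqp2 (7.04 and 6.92). All 3 passed as higher. Of the 5 mesangial and fibroblast markers 4 were above it in the input. Acta2 averaged 13.57 in each group and did not pass. Pdgfrb (11.76 in the pulldown and 11.45 in the input), Gata3 (9.65 and 8.84) and Myh11 (11.81 and 10.36) passed as higher. The part of these cell type markers in the results was not tested. Stau2 itself averaged 10.75 in the pulldown and 10.78 in the input and did not pass (adjusted p = 0.52 by limma, and 0.0052 at a difference of -0.13 after cyclic loess), and Stau1 was higher by 0.19 ± 0.029.

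Both genes of the mitotic chromosome body were higher. Mki67 stood at 9.99, 10.09 and 10.08 in the pulldown arrays, against 8.33, 8.27 and 8.42 in the input arrays. Top2a, the topoisomerase that untangles sister chromatids, stood at 10.64, 10.70 and 10.56 in the pulldown, against 9.51, 9.40 and 9.32 in the input. For each gene the lowest pulldown value was more than 1 log2 unit above the highest input value. The difference of Top2a was 1.23 ± 0.056 (adjusted p = 1.4e-06), and that of Mki67 had an adjusted p of 2.6e-07. Each array averages over many cells, so a transcript present in few cells and one at a low level in every cell cannot be told apart. A further probe set for Top2a lay at 4.45 in the pulldown and 4.43 in the input, below the median of all probe sets, and it was not used.

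The outer kinetochore was represented by Knl1 and by the 4 subunits each of the Mis12 and Ndc80 complexes. Of these 9 genes, all bright, 7 were higher and 2 lower (77.8% and 22.2%, against 45.9% and 26.8% of bright genes). Knl1 carries the motifs on which the checkpoint kinase Bub1 is recruited. It stood at 9.46, 9.54 and 9.61 in the pulldown, against 7.65, 7.93 and 8.10 in the input. The input arrays were more spread (SD 0.23) than the pulldown arrays (SD 0.075), yet the groups lay far apart (adjusted p = 7.2e-06).

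The Mis12 complex links the inner to the outer kinetochore. Its subunit Nsl1 stood at 8.53, 8.54 and 8.53 in the pulldown, against 7.61, 7.63 and 7.85 in the input, a difference of 0.84 ± 0.062. Mis12 was higher by 0.56 ± 0.063 and Dsn1 by 0.42 ± 0.038. The remaining subunit went the other way: Pmf1 stood at 7.92, 7.76 and 7.70 in the pulldown, against 8.23, 8.17 and 8.30 in the input, a difference of -0.44 ± 0.062 (adjusted p = 0.00057). The groups did not overlap for any of these 4 genes.

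The Ndc80 complex is the microtubule-binding rod of the kinetochore. Nuf2, which pairs with Ndc80 at the microtubule end, stood at 9.24, 9.16 and 9.25 in the pulldown, against 8.38, 8.33 and 8.20 in the input, a difference of 0.91 ± 0.051. Ndc80 itself was higher by 0.33 ± 0.061. At the other end of the rod, Spc24 was higher by 0.53 ± 0.074, and its partner Spc25 was lower. Spc25 stood at 9.21, 9.06 and 9.07 in the pulldown, against 9.65, 9.35 and 9.43 in the input, a difference of -0.36 ± 0.080 (adjusted p = 0.0068). In each of these tetramers 3 subunit mRNAs were higher in the pulldown and 1 was lower (75% and 25%, against 45.9% and 26.8% of bright genes). Whether this split differs from that of bright genes was not tested. Tested against a 1.2-fold change instead of no change, Ndc80 (adjusted p = 0.57) and Spc25 (adjusted p = 0.45) did not pass.

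**Figure D3:**
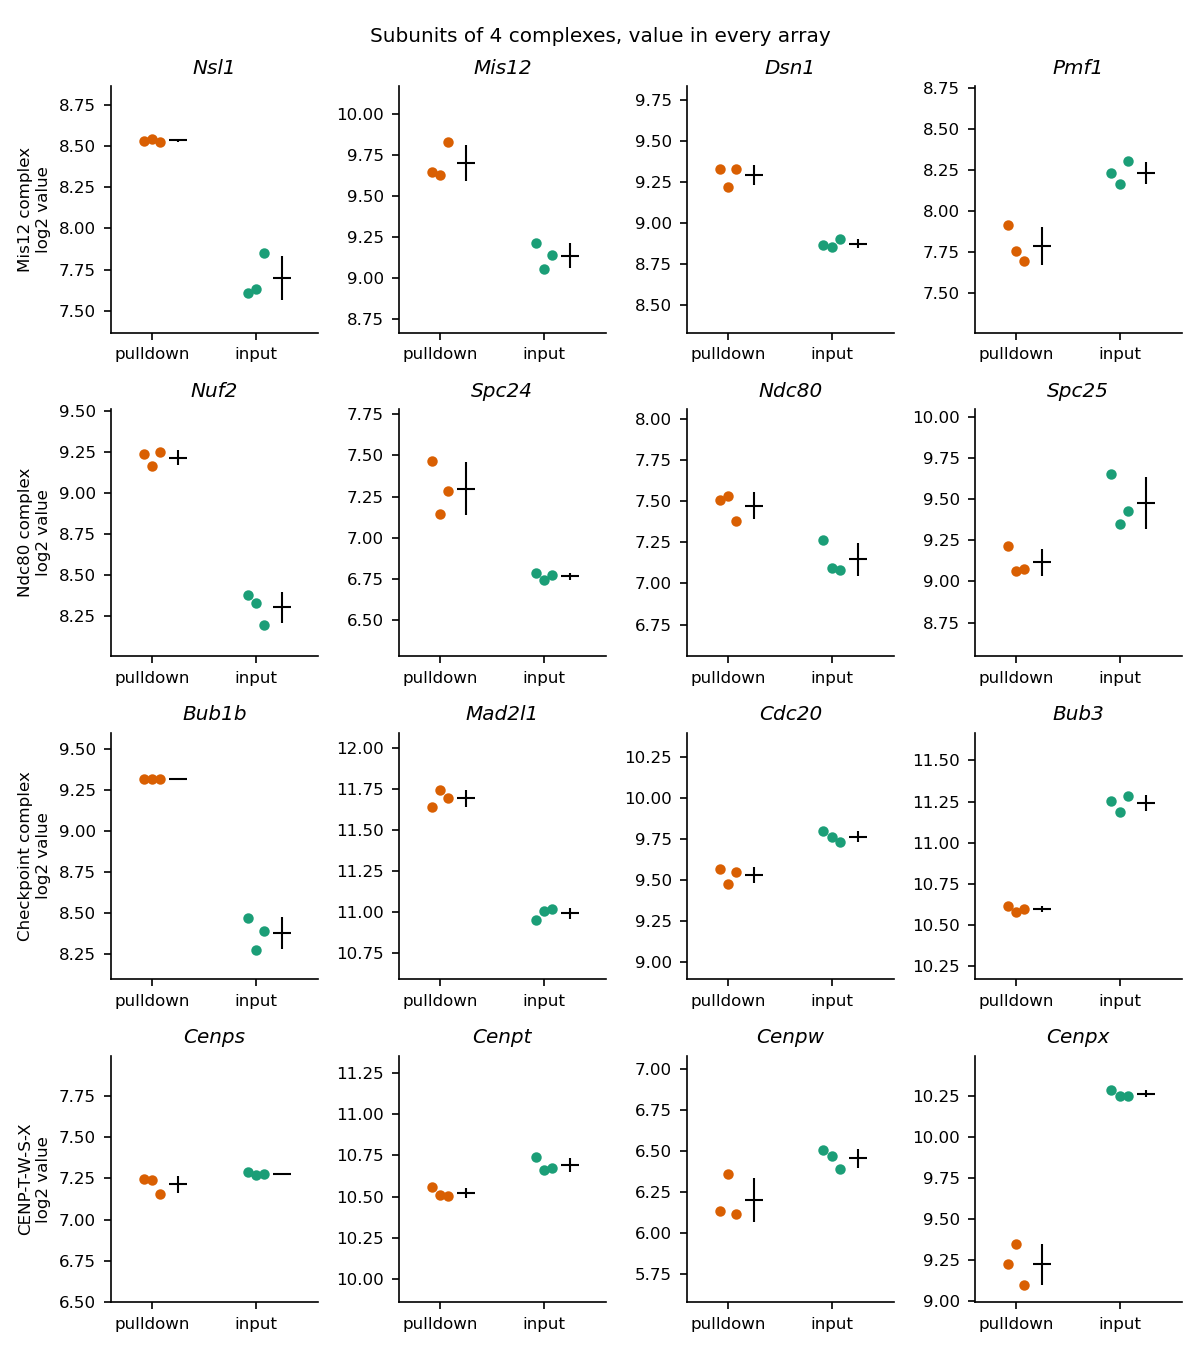
Log2 value in each pulldown array (orange, left) and each input array (green, right) for the subunits of the Mis12 complex, the Ndc80 complex, the mitotic checkpoint complex and the CENP-T-W-S-X complex, with horizontal ticks for means and vertical bars for the SD (n = 3); every panel covers 1.5 log2 units around its own middle. Pmf1, Spc25, Cdc20 and Bub3 are lower in the pulldown beside partners that are higher, and none of the last row is higher.

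All 5 genes of the corona and of the RZZ complex, which recruits dynein and checkpoint proteins, were higher. Cenpe, the kinesin motor of the corona, stood at 9.99, 10.19 and 10.06 in the pulldown, against 8.74, 8.95 and 8.76 in the input, a difference of 1.27 ± 0.071. Cenpf, a long coiled-coil protein, stood at 8.18, 8.20 and 8.32 in the pulldown, against 7.10, 7.07 and 6.97 in the input, a difference of 1.18 ± 0.050. Kntc1, the Rod subunit of RZZ, stood at 8.62, 8.66 and 8.66 in the pulldown, against 7.42, 7.38 and 7.47 in the input, a difference of 1.23 ± 0.033. These 3 were separated by more than 1 log2 unit in every pair of arrays. The other two RZZ subunits were nearer to the input, with Zwilch higher by 0.40 ± 0.034 and Zw10, which also acts in membrane traffic, by 0.16 ± 0.049. The call of Zw10 (limma adjusted p = 0.028) ended in 4 of 6 fits that left out 1 array (adjusted p = 0.1 without pulldown array 1, 0.1 without pulldown array 3, 0.097 without input array 1 and 0.083 without input array 2) and after cyclic loess (0.28).

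Of the 7 checkpoint genes, all bright, 4 were higher, 2 lower and 1 did not pass. These shares, 57.1% and 28.6%, stood beside 45.9% and 26.8% of bright genes. Ttk, the kinase Mps1 that starts the signal, stood at 7.56, 7.62 and 7.48 in the pulldown, against 6.52, 6.60 and 6.58 in the input, a difference of 0.99 ± 0.043. Its input values lay close to the median of all probe sets. Bub1, the kinase recruited to Knl1, was higher by 0.71 ± 0.040.

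Mad2l1, Bub1b, Bub3 and Cdc20 encode the subunits of the mitotic checkpoint complex, the inhibitor of the anaphase-promoting complex. Of their mRNAs 2 were higher and 2 lower (50% each, against 45.9% and 26.8% of bright genes). Bub1b, the BubR1 protein, stood at 9.32 in each of the 3 pulldown arrays, against 8.47, 8.28 and 8.39 in the input, a difference of 0.94 ± 0.049. Mad2l1 was higher by 0.70 ± 0.037, with values of 11.64, 11.74 and 11.69 in the pulldown, against 10.95, 11.00 and 11.02 in the input. Both lay above the input in every array. Bub3, the WD-repeat partner of Bub1 and BubR1, stood at 10.62, 10.58 and 10.60 in the pulldown, against 11.26, 11.19 and 11.28 in the input, a difference of -0.64 ± 0.034 (adjusted p = 2.7e-06). Cdc20, the activator that the complex captures, stood at 9.57, 9.48 and 9.55 in the pulldown, against 9.79, 9.76 and 9.73 in the input, a difference of -0.23 ± 0.035 (adjusted p = 0.00088). Both lay below the input in every array, though Cdc20 did not pass the test against a 1.2-fold change (adjusted p = 1). Mad1l1, the Mad1 protein that brings Mad2 to kinetochores, had a difference of -0.04 ± 0.047 (adjusted p = 0.48), with 10.14, 10.02 and 10.20 in the pulldown and 10.18, 10.15 and 10.16 in the input. After cyclic loess it passed as lower, at -0.16 (adjusted p = 0.018).

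The promoters of 4 members are shown because their mRNAs, all of them used in mitosis, differed in both directions in the pulldown: Mki67 and Bub1b were higher, Bub3 and Cdc20 lower. Many genes of mitosis are known to carry in their promoters the cell cycle genes homology region (CHR, letters TTTGAA) and CCAAT boxes (letters CCAAT). Each window holds the 250 bases before the first listed start of the gene in RefSeq (build GRCm38.p6), written in the direction of transcription, and capitals mark either motif on either strand.
Mki67, chr7:135716380-135716629, minus strand: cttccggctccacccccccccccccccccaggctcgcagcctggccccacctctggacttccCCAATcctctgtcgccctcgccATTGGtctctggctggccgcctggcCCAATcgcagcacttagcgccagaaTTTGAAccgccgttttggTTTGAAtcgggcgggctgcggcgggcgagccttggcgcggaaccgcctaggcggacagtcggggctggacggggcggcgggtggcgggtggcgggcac
Bub1b, chr2:118597961-118598210, plus strand: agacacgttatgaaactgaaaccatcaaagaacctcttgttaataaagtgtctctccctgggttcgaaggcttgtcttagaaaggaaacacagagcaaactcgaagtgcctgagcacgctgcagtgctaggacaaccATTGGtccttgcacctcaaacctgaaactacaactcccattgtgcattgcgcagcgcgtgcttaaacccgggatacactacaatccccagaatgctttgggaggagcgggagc
Bub3, chr7:131560120-131560369, plus strand: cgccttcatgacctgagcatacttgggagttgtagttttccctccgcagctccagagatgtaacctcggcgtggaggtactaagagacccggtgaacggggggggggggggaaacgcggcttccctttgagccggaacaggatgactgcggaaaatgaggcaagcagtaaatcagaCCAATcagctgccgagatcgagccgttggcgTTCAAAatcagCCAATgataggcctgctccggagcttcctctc
Cdc20, chr4:118437344-118437593, minus strand: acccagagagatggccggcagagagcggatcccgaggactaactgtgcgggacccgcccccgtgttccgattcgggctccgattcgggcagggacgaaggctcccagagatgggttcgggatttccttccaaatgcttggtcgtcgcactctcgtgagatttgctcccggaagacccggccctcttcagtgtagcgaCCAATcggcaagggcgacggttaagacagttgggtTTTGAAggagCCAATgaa
Such a window was listed for 41 of the 47 members. TTTGAA on either strand was in 10 of the 41 (24.4%), against 16.3% of the 27025 genes with a window, and CCAAT on either strand was in 23 (56.1%), against 34.5%. In 2 of the 41 a TTTGAA and a CCAAT shared bases, and in none of the 4 printed. A window was listed for 20 of the 26 higher members and for all 11 lower members. TTTGAA was in 4 of the 20 windows of higher members (20%) and in 5 of the 11 of lower members (45.5%). CCAAT was in 10 (50%) and 8 (72.7%). Each motif occurred on both sides, with the larger share among the lower members, and this contrast was not tested. A match is a description of letters and not of a bound site, and the pulldown measured RNA and not transcription.

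The chromosomal passenger complex corrects faulty attachments through its kinase, and 2 of its 3 members measured here were higher (66.7%, against 45.9% of bright genes). Incenp, its scaffold, stood at 9.12, 9.04 and 9.08 in the pulldown, against 8.32, 8.27 and 8.35 in the input, a difference of 0.77 ± 0.035. The kinase Aurkb stood at 9.71, 9.65 and 9.71 in the pulldown, against 9.39, 9.35 and 9.45 in the input, a difference of 0.30 ± 0.036 (adjusted p = 0.00026), which did not pass against a 1.2-fold change. Birc5, survivin, had a difference of -0.15 ± 0.056 and did not pass (adjusted p = 0.067). It stood at 7.30, 7.16 and 7.31 in the pulldown and at 7.46, 7.45 and 7.31 in the input, so a pulldown and an input array read alike at 7.31. It passed as lower without input array 3 (adjusted p = 0.028), after cyclic loess (0.016), after centring on the brightest probe sets (0.039), when bright genes alone were tested (0.038) and when the medians of all genes were made equal (0.017). Cdca8, borealin, the remaining subunit, averaged 8.70 in the pulldown and 8.66 in the input and did not pass (adjusted p = 0.35).

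Of the spindle regulators, Tpx2, which activates Aurora A on spindle microtubules, was higher by 0.76 ± 0.029, while both kinases did not pass. The kinase Aurka stood at 9.29, 9.24 and 9.29 in the pulldown and at 9.35, 9.15 and 9.21 in the input (difference 0.04 ± 0.052, adjusted p = 0.61). Plk1, polo-like kinase, stood at 9.99, 10.04 and 10.05 in the pulldown and at 10.14, 10.00 and 10.08 in the input (difference -0.05 ± 0.042, adjusted p = 0.41). The groups overlapped for each. After cyclic loess Plk1 passed as lower, at -0.16 (adjusted p = 0.011).

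At the centromere base, the histone variant Cenpa had a difference of -0.04 ± 0.052 and did not pass (adjusted p = 0.54, and 0.04 at -0.15 after cyclic loess). Cenpb, which in the mouse binds a motif in minor satellite DNA, was higher by 0.43 ± 0.052.

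The constitutive centromere network, the inner layer that stays on centromeres through the cell cycle, held 14 members. Of these, 3 were higher, 6 lower and 5 not past the test (21.4% higher and 42.9% lower). The matching shares were 31.3% and 17.3% of all genes, and 45.9% and 26.8% of bright genes. Of the 14 members 11 were bright, and the lower members Cenpl and Cenpw were not. The median difference of the 14 was -0.06, whereas the median of the 9 outer kinetochore genes was 0.53. Whether these lists differ was not tested. Its largest positive difference was that of Cenpi, at 0.41 ± 0.046, and Cenpm (0.20) and Cenpo (0.18) were the other higher members. After cyclic loess, Cenpm (adjusted p = 0.07) and Cenpo (adjusted p = 0.15) no longer passed. Cenpc1, the CENP-C protein, which belongs to the network but has a symbol outside the set, was higher by 0.33 ± 0.051. Itgb3bp, the CENP-R protein, likewise of the network and outside the set, was lower at -0.37 ± 0.086. Its means of 5.28 in the pulldown and 5.65 in the input lay below the median of all probe sets.

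The CENP-T-W-S-X complex, made of histone-fold proteins, held 3 of the 6 lower members, and none of its subunits was higher. Cenpx stood at 9.23, 9.35 and 9.10 in the pulldown, against 10.29, 10.25 and 10.25 in the input (adjusted p = 4e-06). Cenpx and Cenps are known also as DNA-binding partners of the Fanconi anaemia proteins. Cenpt, which tethers the Ndc80 complex, stood at 10.56, 10.51 and 10.50 in the pulldown, against 10.74, 10.66 and 10.67 in the input (difference -0.17 ± 0.033, adjusted p = 0.0036). Cenpw stood at 6.14, 6.36 and 6.11 in the pulldown, against 6.50, 6.47 and 6.39 in the input. Every one of these input values of Cenpw lay under 6.54, in a range where a probe set may read little but background, and the size of its difference (-0.25 ± 0.068) is uncertain. Cenps had a difference of -0.06 ± 0.033 (adjusted p = 0.16, and 0.027 at -0.11 after cyclic loess), although all its pulldown values lay below its input values.

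The other lower members of the network were Cenpk, Cenpq and Cenpl. Cenpk stood at 6.33, 6.17 and 6.19 in the pulldown, against 6.62, 6.62 and 6.65 in the input, a difference of -0.40 ± 0.045, and its pulldown values lay below the median of all probe sets. Cenpq stood at 8.37, 8.57 and 8.36 in the pulldown, against 8.72, 8.60 and 8.69 in the input (difference -0.24 ± 0.062, adjusted p = 0.015). Cenpl stood at 5.98, 6.01 and 6.04 in the pulldown, against 6.12, 6.15 and 6.09 in the input, all below the median. The groups did not overlap for these 3 genes, but the separation of Cenpq and Cenpl was small. Of the network, Cenpo, Cenpq, Cenpl and Cenpw each lost their call in 4 of the 6 fits that left out 1 array, with limma adjusted p-values of up to 0.081, 0.067, 0.076 and 0.074, and each kept the sign of its difference in all 6. For Cenpo and Cenpw pulldown arrays 1 and 3 and input arrays 1 and 2 were those whose loss ended the call, for Cenpq pulldown arrays 1 and 3 and input arrays 1 and 3, and for Cenpl arrays 1 and 2 of each group. The members not past the test were Cenpn (0.09), Cenph (0.03), Cenpu (-0.04) and Cenpp (-0.06) besides Cenps, and Cenpp lay below the median of all probe sets in both groups.

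The symbol pattern also took in 2 genes whose products are not structural parts of the kinetochore. Cenpj, a centriole protein, stood at 8.62, 8.64 and 8.56 in the pulldown, against 7.85, 7.78 and 7.64 in the input, a difference of 0.85 ± 0.055. Cenpv, described at centromeres in human cells, stood at 7.90, 7.96 and 7.91 in the pulldown, against 8.16, 8.26 and 8.14 in the input, a difference of -0.26 ± 0.039 (adjusted p = 0.00074). Without them, 25 of 45 members were higher and 10 lower.

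The differences were then set beside the genomic span of the genes, a measure that the choice of members did not use. Spans were taken from the RefSeq gene table (GRCm38.p6) and include introns, so they measure the gene and not the length of its mature mRNA. The 26 higher members had a median span of 31.5 kb and 15 of them spanned over 30 kb. The 11 lower members had a median span of 12.3 kb and none spanned over 30 kb. Under 10 kb, 5 of 11 members were higher and 3 lower, against 19.9% and 47.2% of the bright coding genes of that span. From 10 to 30 kb, 6 of 19 were higher and 8 lower, against 40.5% and 30.1%. All 12 members of 30 to 60 kb were higher, against 60.3% of bright coding genes, and over 60 kb 3 of 5 were higher, against 73.6%. In none of the 4 classes was the difference between members and other genes tested. Across the 47 members Spearman's rank correlation between span and difference was 0.51. It was 0.48 across the 11770 bright coding genes and 0.36 across all 18556 coding genes. All these points come from the same 6 arrays, genes are not replicates, and the correlations are descriptions without a p.

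Single members departed from the order of the spans. Mad1l1 spans 313 kb and Cenpp 189 kb, and neither passed the test. Mki67, with the largest difference, spans 26.7 kb, and Cenpb, which was higher, spans 2.78 kb. Mad2l1 spans 5.89 kb and was higher by 0.70, whereas Bub3 and Cenpx, with spans of 11.5 kb and 2.96 kb, were lower by the largest amounts. The lengths of the mature mRNAs were not analysed here. The rank correlation of the input level with the difference was -0.11 over the 47 genes and 0.08 over all genes. The input mean is itself subtracted in the difference, so these values cannot tell whether level plays a part, which was not tested.

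**Figure D4:**
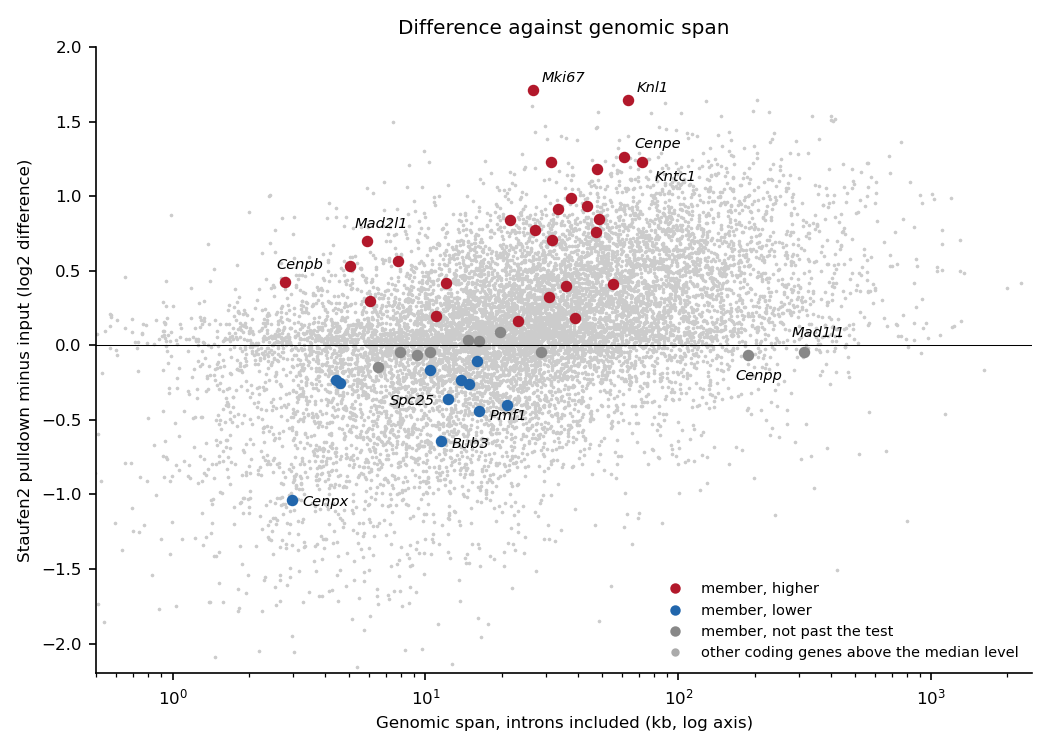
Log2 difference between pulldown and input (vertical axis) against genomic span in kb (horizontal log axis), for the 47 members coloured by call and for the other bright coding genes in grey, those outside the axes not shown. Members over 30 kb are higher except Mad1l1 and Cenpp, which lie near 0 at 313 and 189 kb.

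Other genes of mitosis, none of which belongs to the set, were taken from 4 lists. For comparison, 31.3% of all genes were higher and 17.3% lower, and of bright genes 45.9% and 26.8%. Of 28 spindle assembly genes measured, 20 were higher and 3 lower (71.4% and 10.7%, median 0.56). Aspm, a spindle pole protein, was higher by 1.38 ± 0.049, and the mitotic kinesins Kif11 and Kif15 by 1.24 ± 0.038 and 1.24 ± 0.046. The lower members were Haus1 (-0.72) and Haus7 (-0.43), subunits of the augmin complex that branches spindle microtubules, and Cdca5 (-0.27), which protects cohesin. Of 19 genes of mitotic entry and exit, 14 were higher and 1 lower (73.7% and 5.26%, median 0.39). Ect2, which starts cytokinesis, was higher by 1.03 ± 0.027, the transcription factor Foxm1 by 0.88 ± 0.038 and the midzone protein Prc1 by 0.84 ± 0.041, while securin, Pttg1, was lower at -0.27 ± 0.035. Cdk1, the mitotic kinase itself, averaged 10.70 in the pulldown and 10.80 in the input and did not pass (adjusted p = 0.13).

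Of 20 kinetochore proteins with other symbols, 11 were higher and 3 lower (55% and 15%, median 0.25). The matching shares were 31.3% and 17.3% of all genes, and 45.9% and 26.8% of bright genes. The shugoshin Sgo2a, which protects centromeric cohesion, was higher by 1.03 ± 0.028, Ska2 of the Ska complex by 0.88 ± 0.033 and the microtubule polymerase Ckap5 by 0.85 ± 0.030. Mis18a (-0.40), which licenses CENP-A loading, Itgb3bp (-0.37), the CENP-R protein, and Rae1 (-0.30) were lower, and Itgb3bp lay below the median of all probe sets in both groups. The anaphase-promoting complex and its partners, the target of the checkpoint, had more lower than higher members. Of these 17 genes, all bright, 5 were higher and 9 lower (29.4% and 52.9%, median -0.20), against the same bright shares. Its scaffold Anapc1 was higher by 0.51 ± 0.035, and Cdc27 and Cdc23, subunits of its arm, by 0.47 ± 0.033 and 0.35 ± 0.038. The cullin subunit Anapc2 (0.26) and the activator Fzr1 (0.19) were the other higher genes. The lower genes were the subunits Anapc13 (-1.65 ± 0.072), Anapc11 (-0.78 ± 0.042), Anapc10 (-0.59 ± 0.039), Anapc7 (-0.23), Anapc5 (-0.22), Anapc16 (-0.20) and Anapc15 (-0.20) and the ubiquitin-conjugating enzymes Ube2c (-0.57) and Ube2s (-0.35). Anapc4 (0.06), Cdc16 (-0.03) and Cdc26 (-0.05) did not pass. The differences between the lists were not tested.

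**Figure D5:**
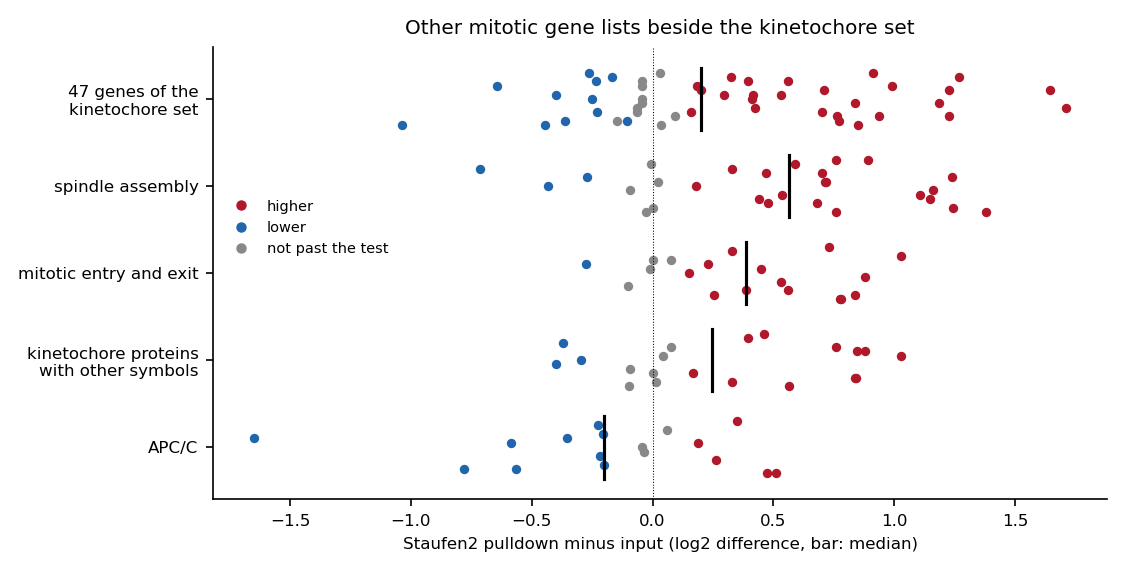
Log2 difference between pulldown and input for each gene (points, coloured by call) of the 47-gene set and of 4 other mitotic lists, with black bars at the medians, which are 0.20, 0.56, 0.39, 0.25 and -0.20 from top to bottom. Points are spread vertically only so that they can be told apart.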

How the data were processed

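The authors deposited 1 table that gives, for every probe set, a log2 value in each of the 6 arrays. RMA and limma are named in the submitters' processing notes; versions are not given in the sources used here. The usual quantile step of RMA gives every array one distribution, and a difference is then relative to the rest of a sample's RNA. Of 35556 probe sets, the 21789 with 1 gene symbol in the platform's annotation were used, with symbols updated through Entrez identifiers. For the 999 genes with several, the brightest over the 6 arrays was taken. Groups were compared with limma 3.58.1 in R 4.3.3 (lmFit and eBayes, 2-sided, no covariates), with Benjamini-Hochberg adjustment over 19938 genes. Arrays have no read depth, and precision is limited by their number (median SE 0.039).

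The members, the lists and the rule for genes given in every array (the 12 largest positive and all negative differences past the test, and Bub3, Plk1, Cdc20, Aurka and Aurkb; further members were added after their values were seen) were chosen with earlier results of these data known. Same-numbered arrays did not deviate together (correlations of deviations from the group means from -0.06 to 0.11), so numbers were not taken as pairs. A planned description by protein length was not made, since no protein table was used here. The alternatives were a replicate block, a variance trend, 2 scalings, a filter on dim genes, averaging probe sets, testing against a 1.2-fold change, array weights and leaving out each array, with a median scaling and a set without Cenpj and Cenpv added after the data were seen. The fit was tested on simulated data. Figures were drawn with matplotlib 3.10.9.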

Additional observations from a re-analysis of the deposited data

How the results depend on the processing

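Of the 37 members called, 25 kept their call and sign under every alternative that tested them, and no called member changed sign under any. The median difference of the members (0.20) was 0.11 after cyclic loess, 0.31 among genes above the median level and 0.15 when the median of all genes was made equal between arrays, an alternative chosen after the data were seen. Tested against a 1.2-fold change, 21 members were higher and 4 lower (Ndc80, Spc25, Zw10, Cdc20, Aurkb, Cenpm, Cenpl, Cenpo, Cenpq, Cenpt, Cenpw and Cenpv no longer passed), and of all genes 3034 were higher and 1822 lower (against 6246 and 3459). Leaving out 1 array at a time gave 24 to 26 higher and 8 to 11 lower members, a median of 0.17 to 0.24, and 5654 to 5931 higher and 3193 to 3357 lower genes. The lowest counts of members came without pulldown array 1 and without input array 1, 24 higher and 8 lower in each. With the replicate block 26 members were higher and 11 lower, and of all genes 6247 and 3467, and the block changed no call of a member. The values of Cenpk, Cenpl, Cenpp and Cenpw, at or under 6.63 in each group's mean, are limited by signal over background.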
